A study of Mus musculus with 12 samples.

Results

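Transcript levels of 7 receptors of the tumor necrosis factor (TNF) receptor superfamily were followed in primary colonic myofibroblasts, the contractile fibroblast-like cells that lie under the epithelium of the colon. The receptors were taken by gene symbol (Tnfrsf1a, Tnfrsf1b, Ltbr, Tnfrsf12a, Fas, Tnfrsf11b and Tnfrsf21) from a table of 24411 genes, and all 7 were present. The cells were grown out of the distal colon of C57BL/6 mice aged 16 weeks, passaged 6 to 8 times in medium with epidermal growth factor, and read by RNA sequencing after 5 days in Matrigel with no further treatment. The 6 knockout libraries carry TNFR1-/-, and the 6 control libraries are heterozygous (TNFR1-/+), so control cells also have 1 inactive copy of Tnfrsf1a. The labels give neither the construction of the allele nor the number of animals or cultures behind the 12 libraries. P-values therefore rest on how these 12 libraries vary among themselves, and that variation may be technical rather than biological.

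Members of this family are surface or secreted proteins that bind trimeric ligands of the TNF superfamily through cysteine-rich repeats. Some carry an intracellular death domain, through which they recruit adaptors such as TRADD or FADD and can start cell death or, for TNFR1, activate NF-kB. Others bind TRAF proteins directly and signal to the classical or the alternative NF-kB pathway, and a few lack a membrane anchor and act as decoys. In the intestinal wall, mesenchymal cells are known to sense TNF and lymphotoxins and to answer with cytokines, chemokines and growth factors. The study compared knockout with control cells to ask what TNFR1 does in the colonic mesenchyme.

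The deposited values were expected counts, and totals ran from 6543013 to 9937008 per knockout library and from 11890729 to 16458689 per control library. The 12 libraries formed 4 sets of very similar profiles, namely a set of knockout 1 to 4, a set of knockout 5 and 6, a set of control 1 to 5, and control 6 by itself. Ranked over genes, libraries of 1 set correlated at 0.989 to 0.998 (Spearman), and libraries of 1 genotype but different sets at 0.926 to 0.954. Libraries of different genotypes correlated at 0.882 to 0.976. Some pairs across genotypes were thus more alike than any pair of 1 genotype from different sets. Because these sets were found in the data, values are given per library and, beside the fit over all 12, for each knockout set against each control set. Fibroblast markers were abundant in every library, with a summed level of 13503 to 33445 CPM (counts scaled to the total of each library) in knockout and 24897 to 35306 CPM in control libraries. Of 10 epithelial markers, 8 were too low to test, among them Epcam and Cdh1, whose highest count was 1. Of 5 smooth muscle markers 4 rose and none fell over all 12 libraries. Their sums were 836.6 to 2358.1 CPM in knockout and 469.5 to 1125.1 CPM in control libraries. In knockout 5 and 6, Myh11, at 17.8 and 19.8 CPM, was below every control (22.9 to 120.3 CPM), while Lmod1, at 151.7 and 152.7 CPM, was above every control. The part of these markers in the receptors' levels was not tested. In bulk RNA, fewer cells of a type and less RNA per cell cannot be told apart.

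The knockout cells had lower levels of both TNF receptors (Tnfrsf1a and Tnfrsf1b) and of the lymphotoxin receptor Ltbr. They had higher levels of the TWEAK receptor Tnfrsf12a, of the secreted decoy Tnfrsf11b and of the death-domain receptor Tnfrsf21. The death receptor Fas did not pass the test. All 7 passed the filter on low counts, and 6 had an adjusted p below 0.05 in the edgeR quasi-likelihood test, 3 higher and 3 lower. Over all 12146 genes tested, 43.0% passed, 21.4% as higher and 21.6% as lower, so a pass alone was common. The median log2 difference (knockout minus control) was 0.34 over the 7 receptors and 0.02 over all tested genes. With 3 receptors higher and 3 lower, the median of the receptors is the value of Fas, so it shows no common direction. For 4 of the 7, Tnfrsf1a, Tnfrsf1b, Tnfrsf12a and Tnfrsf11b, every knockout library lay on one side of every control, against 23.0% of all tested genes. The differences kept 1 direction in all 4 contrasts of sets for 6 of the 7, against 43.6% of tested genes; these contrasts share sets and are not independent.

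The sets limit these calls. When counts were summed within each set, leaving 2 sums per genotype, none of the 7 passed in edgeR, and 0% of 13132 genes did (adjusted p = 0.613 to 0.90 for the 7). In that fit 2 of the 7 and 1047 of all genes had an unadjusted p below 0.05, and DESeq2 on the same sums called 198 genes but none of the 7. Without knockout 5 and 6 all 7 passed, as did 52.0% of genes. Without knockout 1 to 4 all 7 passed again, as did 61.1% of genes, with Fas in the opposite direction.

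**Figure D1:**
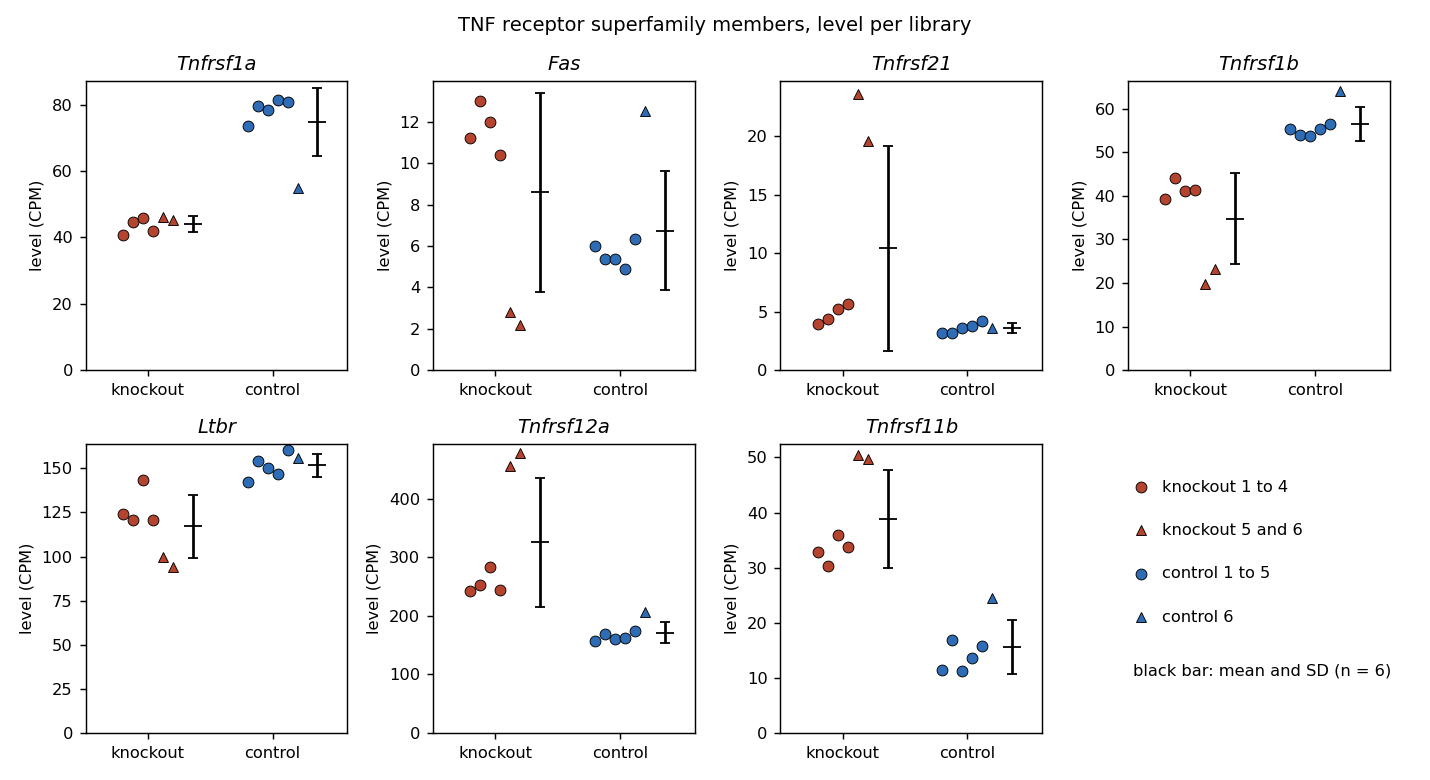
Level of each of the 7 receptors in CPM (y axis, from 0) in the 6 knockout and 6 control libraries, with 1 point per library, triangles for knockout 5, knockout 6 and control 6, and black bars for mean and SD. Knockout Tnfrsf1a sits between 40.6 and 46.1 CPM, while Fas, Tnfrsf21 and Tnfrsf1b split between knockout 1 to 4 and knockout 5 and 6.

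Levels of different receptors were compared per length, as CPM per kilobase of the principal transcript in the GENCODE M21 annotation; the annotation behind the counts is not given in the sources used here. Tnfrsf12a was the most abundant in both genotypes, at 331.2 ± 112.2 CPM per kb in knockout and 174.4 ± 18.7 in control libraries (SD, n = 6 each). Ltbr came next with 55.6 ± 8.49 CPM per kb in knockout and 72.0 ± 3.16 in control libraries. Tnfrsf1a was the third with 20.4 ± 1.08 CPM per kb in knockout and 34.7 ± 4.70 in control libraries. These top 3 did not overlap each other within either genotype.

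Below them the order differed between genotypes. In knockout libraries Tnfrsf11b was the fourth at 13.8 ± 3.18 CPM per kb, and its range (10.8 to 17.9) overlapped that of Tnfrsf1b (5.19 to 11.6). Fas (1.47 to 8.78 CPM per kb) overlapped both Tnfrsf1b and Tnfrsf21 (1.10 to 6.51) there. The order of the last 2 turned with the sets, since Tnfrsf21 had 6.51 and 5.40 CPM per kb in knockout 5 and 6, where Fas had 1.89 and 1.47. In control libraries Tnfrsf1b was the fourth at 14.8 ± 1.01 CPM per kb and stood clear of Tnfrsf11b at 5.54 ± 1.74, which overlapped Fas at 4.55 ± 1.94. Tnfrsf21 was last in the controls at 0.995 ± 0.109 CPM per kb, below every other member.

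**Figure D2:**
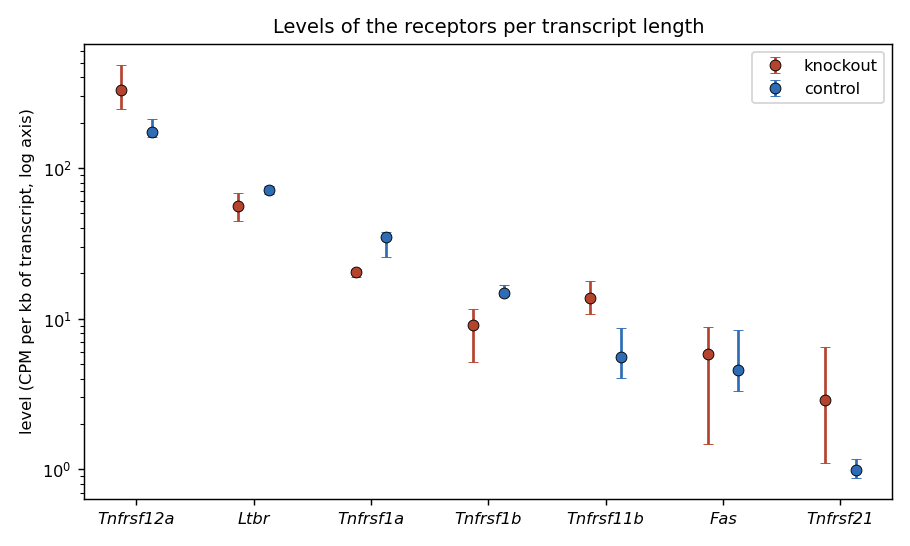
Level of each receptor in CPM per kilobase of principal transcript (log y axis) in knockout and control libraries, with points for the mean and bars from the lowest to the highest of 6 libraries. Tnfrsf12a leads at 331.2 in knockout and 174.4 in control libraries, and Tnfrsf21 has the lowest mean in both, although it is above Fas in knockout 5 and 6.

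Among the death-domain receptors, Tnfrsf1a encodes TNFR1, the targeted receptor, which is found on most cell types. Its count was 388, 348, 291, 393, 444 and 438 in knockout 1 to 6, and 1005, 1055, 1083, 1162, 991 and 863 in control 1 to 6. As levels these were 40.6, 44.7, 46.0, 41.8, 46.1 and 45.3 CPM in the knockout, and 73.5, 79.5, 78.5, 81.3, 80.9 and 54.9 CPM in the controls. The groups did not overlap, the knockout libraries lay close together, and control 6 was nearest to them. The level averaged 44.1 ± 2.32 CPM in knockout and 74.7 ± 10.1 CPM in control libraries (SD, n = 6 each), a 1.70-fold fall (log2 difference -0.76, 95% interval -0.97 to -0.55; edgeR adjusted p = 9.24e-05). Against control 1 to 5 the log2 difference was -0.87 in knockout 1 to 4 and -0.79 in knockout 5 and 6, but against control 6 it was -0.35 and -0.27. A count per gene does not show which exons the reads in the knockout libraries come from, or whether they can make a receptor.

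Fas, the receptor through which Fas ligand triggers apoptosis by way of FADD and caspase-8, gave no single answer. Levels of Fas were 11.2, 13, 12, 10.4, 2.8 and 2.17 CPM for knockout 1 to 6 and 5.99, 5.35, 5.37, 4.9, 6.36 and 12.5 CPM for control 1 to 6. Knockout 1 to 4 were near control 6 and above control 1 to 5, and knockout 5 and 6 were below every control. The fit over 12 libraries gave a log2 difference of 0.34 (95% interval -0.57 to 1.24; edgeR adjusted p = 0.54). Without knockout 5 and 6 the log2 difference was 0.78 (adjusted p = 0.0213), and without knockout 1 to 4 it was -1.44 (adjusted p = 0.0169). Col1a1, the main fibrillar collagen chain of fibroblasts, also stood apart in knockout 5 and 6, at 1993 and 2102 CPM, where knockout 1 to 4 had 10467 to 11420 CPM and the controls 8073 to 13267 CPM. Col1a2, Col3a1, Pdgfra, Pdgfrb and Thy1 were likewise lower in knockout 5 and 6 than in all other libraries. Vim was not, at 3932 and 3844 CPM beside 3626 to 4043 CPM in knockout 1 to 4, and Tagln and Acta2 stayed above control 1 to 5. Between genotypes, 3 of the 9 fibroblast markers rose, 2 fell and 4 did not pass. The part of such fibroblast genes in the Fas values was not tested.

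Tnfrsf21 encodes death receptor 6, best known from neurons and T cells. Levels of Tnfrsf21 were 3.98, 4.36, 5.22, 5.64, 23.6 and 19.6 CPM for knockout 1 to 6 and 3.22, 3.16, 3.63, 3.78, 4.24 and 3.62 CPM for control 1 to 6. The high values were those of knockout 5 and 6, while knockout 1 lay below control 5. The rise was 2.90-fold in the fit (log2 difference 1.53, 95% interval 0.57 to 2.50; edgeR adjusted p = 0.0148). It differed greatly by set, with log2 differences of 0.40 and 0.39 for knockout 1 to 4 and 2.56 and 2.54 for knockout 5 and 6. Knockout 5 and 6 also had the largest share of counts from the ribosomal RNA precursor Rn45s, 7.01% and 8.25%. Knockout 1 to 4 had 1.63% to 2.1% and the controls 0.351% to 1.19%, so every knockout library lay above every control in this share, and its part in these values was not tested.

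Of the TRAF-binding receptors, Tnfrsf1b encodes TNFR2, which lacks a death domain, responds best to membrane-bound TNF and is known mainly from leukocytes and some stromal cells. Levels of Tnfrsf1b were 39.2, 44.1, 41.1, 41.3, 19.8 and 23.1 CPM for knockout 1 to 6 and 55.3, 54.0, 53.8, 55.4, 56.4 and 64.1 CPM for control 1 to 6. All knockout libraries lay below all controls, with knockout 5 and 6 lowest. The fall was 1.63-fold (log2 difference -0.70, 95% interval -1.10 to -0.31; edgeR adjusted p = 0.00809), with set differences of -0.41 and -0.63 for knockout 1 to 4 and -1.36 and -1.59 for knockout 5 and 6. Of 12 macrophage and leukocyte markers 10 were tested, 7 fell and none rose, and their summed level was 40.3 to 62.3 CPM in knockout and 86.3 to 134.3 CPM in control libraries. The T cell marker Cd3e was at 0 in all libraries, and the part of leukocyte transcripts in the Tnfrsf1b level was not tested.

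Ltbr encodes the lymphotoxin beta receptor, through which lymphotoxins and LIGHT act on stromal cells, among others through the alternative NF-kB pathway. Levels of Ltbr were 123.9, 120.6, 143.6, 120.7, 100.0 and 94.0 CPM for knockout 1 to 6 and 142.3, 154.4, 150.0, 146.7, 160.6 and 156.1 CPM for control 1 to 6. Knockout 3 lay above control 1, so the groups overlapped. The fall was the smallest of the 6 that passed, at 1.30-fold (log2 difference -0.37, 95% interval -0.59 to -0.16; edgeR adjusted p = 0.00918). The set differences were -0.26 and -0.31 for knockout 1 to 4 and -0.64 and -0.70 for knockout 5 and 6.

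Tnfrsf12a encodes Fn14, a small receptor for the ligand TWEAK that is induced by growth factors and tissue injury. Levels of Tnfrsf12a were 242.3, 252.4, 283.5, 243.6, 455.8 and 478.0 CPM for knockout 1 to 6 and 157.4, 168.8, 159.7, 162.6, 173.9 and 207.1 CPM for control 1 to 6. Every knockout library was above every control, with control 6 nearest to the knockout and knockout 5 and 6 far above the rest. The rise was 1.90-fold (log2 difference 0.93, 95% interval 0.52 to 1.33; edgeR adjusted p = 0.0019). Against control 6 the log2 difference was 0.29 in knockout 1 to 4 and 1.16 in knockout 5 and 6, and against control 1 to 5 it was 0.62 and 1.5.

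Tnfrsf11b encodes osteoprotegerin, a secreted decoy that binds RANKL and TRAIL. Levels of Tnfrsf11b were 32.8, 30.3, 35.9, 33.7, 50.5 and 49.8 CPM for knockout 1 to 6 and 11.5, 16.9, 11.3, 13.6, 15.8 and 24.5 CPM for control 1 to 6. The groups did not overlap, and control 6 was again the control closest to the knockout. The rise was 2.49-fold (log2 difference 1.31, 95% interval 0.87 to 1.76; edgeR adjusted p = 0.000327), with set differences of 1.26 and 0.43 for knockout 1 to 4 and 1.85 and 1.02 for knockout 5 and 6, each against control 1 to 5 and then control 6.

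**Figure D3:**
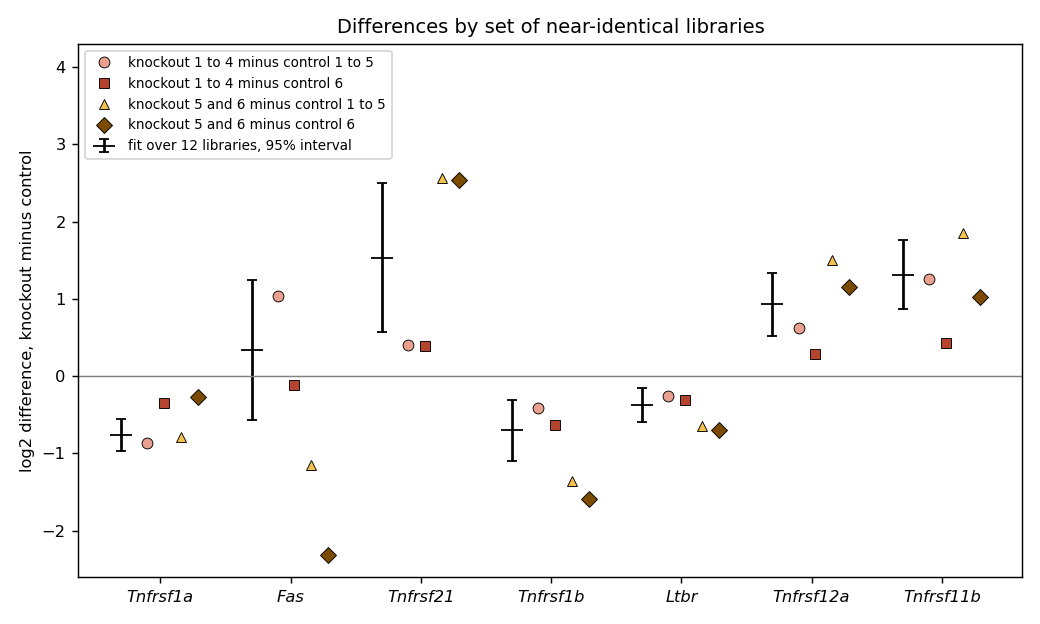
Log2 difference, knockout minus control (y axis), of each receptor in the fit over 12 libraries (black, with 95% interval) and between sets of libraries, each knockout set against each control set (4 colored symbols). Tnfrsf1a, Tnfrsf1b and Ltbr lie below 0 and Tnfrsf12a, Tnfrsf11b and Tnfrsf21 above 0 in all 4, while Fas runs from 1.04 to -2.31.

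Within the knockout group, knockout 5 and 6 set against knockout 1 to 4 differed by a log2 difference of 2.15 for Tnfrsf21, 0.88 for Tnfrsf12a, 0.59 for Tnfrsf11b and 0.08 for Tnfrsf1a. The same difference was -0.39 for Ltbr, -0.95 for Tnfrsf1b and -2.20 for Fas, beside a median size of 0.49 over all tested genes. The targeted gene varied least of the 7 between the knockout sets, but not between the control sets. There, control 6 minus control 1 to 5 gave a log2 difference of -0.52 for Tnfrsf1a, beside 0.01 for Tnfrsf21, 0.05 for Ltbr, 0.22 for Tnfrsf1b, 0.34 for Tnfrsf12a, 0.83 for Tnfrsf11b and 1.15 for Fas, and a median size of 0.36 over all tested genes.

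The sequence before the start of transcription is shown for a pair of receptors that fell and a pair that rose, with the pattern GGGNNNNNCC, a loose form of the NF-kB site, in capitals where it occurs on either strand. The stretches are the 250 bases before the RefSeq start in GRCm38.p6, written 5′ to 3′ along the gene. They lie at chr6:125349473-125349722 (+ strand), chr4:145246871-145247120 (- strand), chr17:23677450-23677699 (- strand) and chr17:43016305-43016554 (+ strand).
Tnfrsf1a: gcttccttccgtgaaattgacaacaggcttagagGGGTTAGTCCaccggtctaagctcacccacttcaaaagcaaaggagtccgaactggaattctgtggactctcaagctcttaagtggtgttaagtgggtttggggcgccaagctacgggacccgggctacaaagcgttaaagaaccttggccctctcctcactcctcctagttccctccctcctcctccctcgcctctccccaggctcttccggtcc
Tnfrsf1b: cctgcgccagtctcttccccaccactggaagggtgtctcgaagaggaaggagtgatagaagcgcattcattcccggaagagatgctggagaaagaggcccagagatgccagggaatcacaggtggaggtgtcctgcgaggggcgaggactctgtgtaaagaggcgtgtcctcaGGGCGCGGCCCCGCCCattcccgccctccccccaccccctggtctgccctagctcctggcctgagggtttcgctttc
Tnfrsf12a: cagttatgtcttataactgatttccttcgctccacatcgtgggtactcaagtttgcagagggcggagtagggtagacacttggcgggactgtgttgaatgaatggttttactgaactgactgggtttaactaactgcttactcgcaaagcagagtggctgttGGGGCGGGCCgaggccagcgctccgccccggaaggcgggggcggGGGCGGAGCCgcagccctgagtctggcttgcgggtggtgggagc
Tnfrsf21: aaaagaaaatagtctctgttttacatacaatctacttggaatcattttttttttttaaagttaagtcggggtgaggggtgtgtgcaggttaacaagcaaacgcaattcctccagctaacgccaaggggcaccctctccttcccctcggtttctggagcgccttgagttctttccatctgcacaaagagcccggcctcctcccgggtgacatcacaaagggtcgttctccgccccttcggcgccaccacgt
The pattern occurred 1 time before Tnfrsf1a, 3 times (overlapping matches counted) before Tnfrsf1b and 2 times before Tnfrsf12a, and had no match before Tnfrsf21. It was in 46.0% of 32536 such stretches over all genes, so a match was common. Of these matches, 2 before Tnfrsf1b and 2 before Tnfrsf12a overlapped a GC box (GGGCGG, either strand), which was in 33.0% of all stretches and occurred 5 times before Tnfrsf12a. The AP-1 pattern TGANTCA, in 6.73% of all stretches, and the serum response CArG box, in 1.48%, had no match in the 4 stretches shown. A match in these letters does not show that a factor binds, and 6 of the 7 receptors had an entry.

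Of 21 further receptors of the family, 13 were too low to test, with at most 19 counts in any library (Tnfrsf11a, the receptor RANK), and Tnfrsf8, Tnfrsf13b, Tnfrsf17 and Edar had 0 counts in all 12. A count of 0 allows a level of up to 0.310 to 0.475 CPM per knockout library and 0.191 to 0.245 CPM per control library (3 counts, counting error only). Of the 8 tested, 2 rose, 3 fell and 3 did not pass, with a median log2 difference of -0.06, where 43.0% of all tested genes passed.

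The largest change was in Ngfr, the low-affinity neurotrophin receptor, which fell 6.53-fold. Levels of Ngfr were 1.99, 2.69, 2.21, 3.30, 1.66 and 2.07 CPM for knockout 1 to 6 and 17.4, 14.8, 15.5, 14.4, 16.6 and 12.3 CPM for control 1 to 6, with no overlap (log2 difference -2.71, 95% interval -3.06 to -2.35; edgeR adjusted p = 8.36e-07). The 4 contrasts of sets gave log2 differences of -2.24 to -3.04, and on the summed sets the call was lost in edgeR (adjusted p = 0.613) but made in DESeq2 (adjusted p = 6.51e-05). Ngfr also marks enteric glia, and the summed level of 5 glial markers was 0.207 to 3.77 CPM in knockout and 4.86 to 6.36 CPM in control libraries. Of those, 2 were tested and 1, Sox10, fell, and their part in the Ngfr level was not tested.

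Relt, an orphan receptor of the family, rose 3.69-fold, reading 9.79 to 14 CPM for knockout 1 to 4, 35.3 and 36.8 CPM for knockout 5 and 6, 4.00 to 4.53 CPM for control 1 to 5 and 10.4 CPM for control 6 (edgeR adjusted p = 0.00255). Tnfrsf10b, the mouse receptor of the death ligand TRAIL, rose 1.37-fold (111.4 ± 19.0 CPM in knockout and 81.1 ± 12 CPM in control libraries, SD, n = 6 each; edgeR adjusted p = 0.0125). The high values were those of knockout 1 to 4, and without them the log2 difference was 0.11 (adjusted p = 0.507). Tnfrsf26 fell 2.22-fold to 3.37 ± 1.48 CPM, against 7.49 ± 0.868 CPM in controls, and Tnfrsf14, the receptor HVEM, fell 2.51-fold at low levels (0.636 ± 0.301 CPM in knockout and 1.57 ± 0.210 CPM in control libraries). Tnfrsf22 and Tnfrsf23, decoy receptors for TRAIL in mice, and Eda2r, a receptor for an ectodysplasin form, had log2 differences of 0.05, -0.09 and -0.03 and did not pass. Tnfrsf22, Tnfrsf23 and Tnfrsf26 are related copies that can share reads, so the split between them is uncertain.

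**Figure D4:**
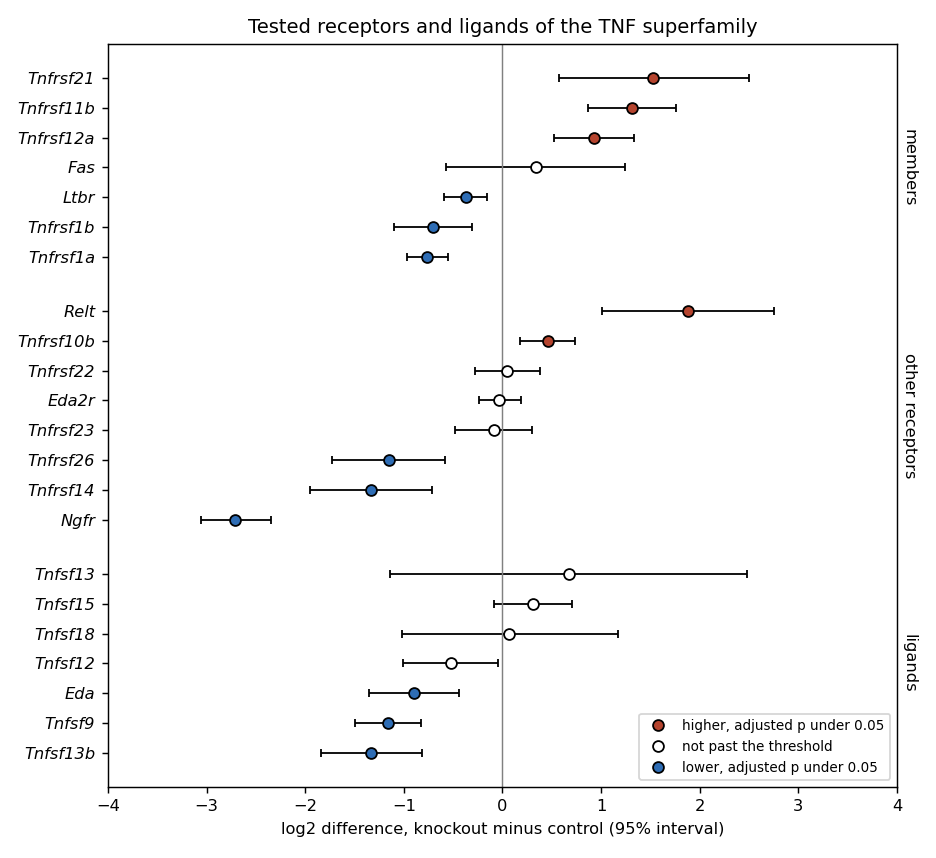
Log2 difference, knockout minus control (x axis, with 95% interval), of the 7 receptors, the 8 other receptors tested and the 7 ligands tested, filled where the edgeR adjusted p was below 0.05. Ngfr at -2.71 is farthest to the left and Relt at 1.88 farthest to the right.

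Of the TNF-family ligands known to bind the 7 receptors, all but 1 were barely detected. Of 18 ligands listed, 11 were too low to test. Tnf had at most 6 counts in any library, Lta, Ltb and Tnfsf14 (LIGHT) at most 1 each, Tnfsf11 (RANKL) at most 3, Tnfsf10 (TRAIL) at most 2, and Fasl none. The exception was Tnfsf12, which encodes TWEAK, the ligand of Fn14. Levels of Tnfsf12 were 25.0, 22.5, 23.4, 23.6, 10.1 and 10.9 CPM for knockout 1 to 6 and 25.1, 26.1, 25.2, 25.5, 29.3 and 34.5 CPM for control 1 to 6. All knockout libraries were below all controls, knockout 1 only just, and the difference did not pass (log2 difference -0.52, 95% interval -1.01 to -0.04; edgeR adjusted p = 0.0747). Knockout 5 and 6 thus had the lowest levels of this ligand and the highest of its receptor.

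Of the 7 ligands tested, 3 fell and none rose, with a median log2 difference of -0.52. Over all tested genes 21.6% fell and 21.4% rose. Tnfsf9, the ligand of the costimulatory receptor 4-1BB, fell 2.24-fold to 4.3 ± 1.04 CPM, against 9.69 ± 0.792 CPM in controls (SD, n = 6 each; edgeR adjusted p = 0.000112). Tnfsf13b, the B cell survival factor BAFF, fell 2.51-fold (1.00 ± 0.350 CPM in knockout and 2.55 ± 0.527 CPM in control libraries; edgeR adjusted p = 0.00076). Eda, the ectodysplasin gene, fell 1.86-fold (3.43 ± 1.24 CPM in knockout and 6.38 ± 0.306 CPM in control libraries; edgeR adjusted p = 0.00473). Tnfsf15 (log2 difference 0.31), Tnfsf18 (0.07) and Tnfsf13 (0.67) did not pass, and Tnfsf13, which neighbors Tnfsf12, ranged from 0 to 2.73 CPM.

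Genes that act next to these receptors moved in both directions, as did genes at large. Over all 12146 tested, 43.0% passed, 21.4% as higher and 21.6% as lower, so a call in this list or in the NF-kB and shedding lists below was common. Of 10 adaptors tested, 2 rose, 2 fell and 6 did not pass (median log2 difference -0.02). Traf5, a TRAF protein used by several family members, rose 2.22-fold, with 16.0 to 24.2 CPM in knockout and 6.82 to 12.8 CPM in control libraries (edgeR adjusted p = 0.000145). Cflar, which encodes the caspase-8 inhibitor c-FLIP, rose 1.53-fold (edgeR adjusted p = 0.000966), although knockout 3, at 140.8 CPM, lay below control 6, at 149.3 CPM. Fadd, the adaptor of Fas, fell 1.42-fold (adjusted p = 0.018), although control 6, at 11.1 CPM, lay below all knockout libraries but knockout 2. Ripk1, the kinase recruited to TNFR1, fell 1.16-fold (adjusted p = 0.023), and its call was lost without control 1 (0.0509) or control 4 (0.054).

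In the alternative NF-kB arm, through which Ltbr and Fn14 signal, 1 of 6 genes rose, 2 fell and 3 did not pass (median -0.31). The kinase gene Chuk rose 1.90-fold (edgeR adjusted p = 0.000114). Against control 1 to 5 the log2 difference of Chuk was 0.92 in knockout 1 to 4 and 1.25 in knockout 5 and 6. Against control 6 it was 0.35 and 0.69. Birc3, which encodes the ubiquitin ligase cIAP2, fell 1.86-fold to 9.23 ± 1.38 CPM, against 17.2 ± 1.39 CPM in controls (edgeR adjusted p = 9.64e-05). Relb, the transcription factor of that arm, fell 1.6-fold (adjusted p = 0.00327), but the groups overlapped. Against control 6 its log2 difference was -0.66 in knockout 1 to 4 and -0.05 in knockout 5 and 6. Of 5 genes that control the shedding of TNF and its receptors, 1 rose and 2 fell (median -0.16). Adam17, the sheddase itself, fell 1.28-fold (73.7 ± 6.84 CPM in knockout and 94.7 ± 4.03 CPM in control libraries), and Rhbdf2, the iRhom that carries ADAM17 to the surface, fell 1.93-fold (adjusted p = 0.000525). Timp3, an inhibitor of ADAM17, rose 1.95-fold (adjusted p = 0.0301), but control 6, at 1443.8 CPM, was above all knockout libraries (1011.7 to 1192.5 CPM) and the call was lost without any 1 of control 1 to 5 (adjusted p = 0.0666 to 0.0672).

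The genes whose profile over the 12 libraries was most like each receptor were found by the root mean square difference of log2 CPM after centering each gene, among 10271 genes. Tnfrsf1a was closest to Nek6 (0.07) and Lemd2 (0.09), Tnfrsf1b to Ctsb (0.07) and Dnase2a (0.08), and Ltbr to Aes (0.05) and Slc39a7 (0.06). Tnfrsf12a was closest to Clcf1 (0.08) and Rnpep (0.09), and Tnfrsf11b to Nes (0.14) and Mmd (0.15). Fas was closest to Fkbp14 (0.13) and to Col5a1 (0.16), a fibrillar collagen chain. Tnfrsf21 was closest to Ezh2 (0.19), a histone methyltransferase. The 12 points share the 4 sets, so likeness here is mostly likeness over the sets.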

How the data were processed

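The authors deposited 1 table of expected counts, which are estimated reads per gene and can hold decimals; these occurred in 2.67% to 3.48% of values per library and in none of the 7 receptors, and all values were rounded. Per the labels' protocols, oligo-dT beads selected the messenger RNA and the dUTP method kept its strand. The submitters' processing notes name RSEM 1.2.15, Bowtie2 2.1.0 and a human build, although gene symbols are those of mouse, so no coordinates were taken from the counts.

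Groups and numbers came from the titles. In R 4.3.3, filterByExpr (minimum count 10, minimum total 15) kept 12146 genes, and edgeR 4.0.16 scaled them (TMM) and ran its quasi-likelihood test with genotype as the only term and Benjamini-Hochberg adjustment over all of them. CPM use TMM-scaled totals. Alternatives used DESeq2 1.42.0, limma-voom (3.58.1), other scalings and filters, Rn45s left out, a replicate block and each library left out. The scripts were tested on simulated counts of independent libraries. Those counts held no sets of similar libraries, so they cannot show how the calls behave with such sets.

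The receptors, lists and tests were chosen with earlier results of these data known, and fits without sets of libraries or on 4 summed sets were added after seeing the data. Named genes were the 7 receptors, tested receptors and ligands, called genes of other lists and the 2 most similar profiles per receptor (mean log2 CPM of 2 or more, no predicted genes; an item this rule chose is not reported here); untested genes and markers were named for their role. Promoter sequences are from RefSeq (GRCm38.p6).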

Additional observations from a re-analysis of the deposited data

Results flagged for a closer look

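In 22 tested receptors and ligands, each group of 6 libraries was searched for 1 library whose gap to the nearest other was unusually large for the group's range (Dixon's test at the 95% level). Chance gives about 1 in 20 groups. Of 44 groups, 7 met this, and in all 7 the library was control 6. A search for 1 library can hardly flag knockout 5 or knockout 6, since they lie close together apart from knockout 1 to 4. It therefore does not show that control 6 alone deviates. Control 6 already formed a set by itself in the same data. Tnfrsf1a was at 54.9 CPM there, below the 73.5 to 81.3 CPM of the other controls. The remaining 6 genes were above the other controls. Tnfrsf1b was at 64.1 CPM, against 53.8 to 56.4, and Tnfrsf12a at 207.1 CPM, against 157.4 to 173.9. Fas was at 12.5 CPM, against 4.9 to 6.36, and Tnfrsf10b at 104.5 CPM, against 73.3 to 81.8. Tnfrsf23 was at 88.3 CPM, against 56.7 to 58.4, and Relt at 10.4 CPM, against 4.00 to 4.53. These 7 cases share 1 library and are not independent.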

How the results depend on the processing

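Under the 20 alternatives planned, all 7 receptors kept their direction and their side of the threshold, and 6 were called in each. Tnfrsf21 came closest to losing its call, with its highest adjusted p at the threshold after rounding. Leaving out 1 library removes no set but control 6, so those fits cannot show how far the calls depend on the other sets. The ranges over each library left out were -0.84 to -0.74 for Tnfrsf1a, -0.78 to -0.58 for Tnfrsf1b, -0.44 to -0.32 for Ltbr, 0.79 to 1.00 for Tnfrsf12a, 0.18 to 0.61 for Fas, 1.23 to 1.49 for Tnfrsf11b and 1.12 to 1.71 for Tnfrsf21 (log2). Of 720 values for the other listed genes, 9 lost and 12 gained a call. Genes called ran from 4432 to 6069 without 1 library. With the replicate block 3974 genes passed, all 7 receptors kept their side of the threshold, and Fadd (adjusted p = 0.0663) and Ripk1 (0.0566) lost theirs. Same-numbered libraries did not deviate together (Pearson r of deviations -0.364 to 0.184). The sets enter these deviations, since knockout 1 to 4 all matched control 6 best. The correlations therefore cannot show whether the numbers pair the samples.

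Among the alternatives added after the data had been seen, genes called lower were 3953 without knockout 1 to 4. Genes called were 8827 without knockout 5, knockout 6 and control 6 (4319 higher, 4508 lower). In edgeR on the 4 summed sets, 0 genes were called, 0 receptors and 0 other listed genes, with 1047 genes at an unadjusted p below 0.05. DESeq2 on those sums called 198 (64 higher, 134 lower), 0 receptors and 1 other listed gene. The receptors' log2 differences in edgeR and then DESeq2 on the sums were -0.59 and -0.57 for Tnfrsf1a, -0.92 and -0.90 for Tnfrsf1b, -0.46 and -0.44 for Ltbr, 0.96 and 0.98 for Tnfrsf12a, 1.13 and 1.15 for Tnfrsf11b, and 1.86 and 1.89 for Tnfrsf21. Fewer samples enter those fits. Fas, not called over 12 libraries, was at 0.78 without knockout 5 and 6, 1.06 when control 6 was left out too, -1.44 without knockout 1 to 4, and -0.34 and -0.33 on the sums. Reversed signs with a call were also seen for Tnfsf18 (-1.36 without knockout 5 and 6, -1.35 when control 6 was left out too) and, without knockout 5, knockout 6 and control 6, for Tnfrsf23 (0.26), Traf2 (-0.18) and Traf4 (-0.13). Without knockout 1 to 4 these genes were called the other way, at 1.19 for Tnfsf18, -0.67 for Tnfrsf23, 0.33 for Traf2 and 0.54 for Traf4. The cause was not tested.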

Other observations

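Tnfrsf1a and Ltbr are neighbors on mouse chromosome 6, with only Scnn1a, a sodium channel subunit gene, between them in the RefSeq order of protein-coding genes. Of the 5 protein-coding neighbors on each side of Tnfrsf1a, 4 passed the filter on low counts, and these were named after their values were seen. Tapbpl (10.1 CPM in knockout and 16.5 CPM in control libraries), Ltbr and Scnn1a (1.51 CPM in knockout and 2.47 CPM in control libraries) fell, all on one side of Tnfrsf1a, with edgeR adjusted p-values of 0.000653, 0.00918 and 0.0392. Cd9, the only neighbor tested on the other side, had a log2 difference of 0.46 and did not pass (edgeR adjusted p = 0.181). The sides therefore cannot be compared. The other 6 neighbors, Cd27 among them, were too low to test. Over all 12146 genes tested 43.0% passed, 21.6% as lower, and on the summed sets no gene passed in edgeR.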
